A study of Mus musculus with 6 samples.

Results

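The variable (V) gene segments of immunoglobulin were examined in RNA sequencing libraries of mouse aorta. They were the genes named Ighv, Igkv or Iglv with a number, for the heavy, kappa and lambda chain, and were selected on a summed count of 12 or more over all 6 libraries. Of 268 such V segments in a table of 41064 genes, 164 met this minimum, 82 of 137 Ighv, 79 of 128 Igkv and 3 of 3 Iglv. Another 63 had no count in any library and 41 had 1 to 11 counts. Because the minimum was set on the summed count, the abundance of these segments is what chose them and is given as a description. Just outside it were Ighv6-5, Ighv9-4 and Igkv2-95-1 at 10 counts and Igkv4-70 and Igkv4-91 at 11. Just inside were Ighv1-42, Ighv1-83, Ighv2-4, Ighv8-2 and Igkv8-18 at 12 counts. The table types 3 of the 164 segments as pseudogenes, Igkv4-60, Igkv4-83 and Ighv1-83.

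An immunoglobulin chain is made only in cells of the B lineage. In each developing B cell, 1 V segment is joined to the short D and J segments of its locus (J alone in a light chain), and the joined exon is spliced to the exons of a constant region. The V segment a transcript carries therefore marks the rearrangement of the cell that made it. Resting B cells carry little of this RNA, and plasma cells, which secrete antibody, carry very much of it. The outer wall of the aorta and the fat around it can hold both kinds of cell.

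The study compared aortas of Josd2 knockout mice with those of wild type mice; Josd2 encodes an enzyme that removes ubiquitin from proteins. The libraries were 3 labelled JOSD2 knockout with angiotensin II and 3 labelled wild type with angiotensin II, a vasoconstrictor peptide that both groups received. None of the 6 libraries was untreated, and the labels used give no age, strain or kind of knockout allele. Nothing ties a library to a single animal, so the p-values below measure the spread between these libraries, which may be technical.

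Summed counts per library were 63612353 to 75886761. More genes had 4 counts than 3 or 5 in every library. About 4 deposited counts were therefore read as 1 read pair, which no source states. Levels are CPM, counts scaled with TMM factors to one library size. Josd2 RNA was present in every library, at 21.7, 19.9 and 21.4 CPM in the libraries labelled knockout and 29.9, 31.0 and 29.3 CPM in wild type (log2 fold change -0.52, adjusted p = 0.000244, quasi-likelihood test of edgeR, Benjamini-Hochberg). Scaled to library totals, which raises the median gene by 0.41 on the log2 scale, that difference did not pass (log2 fold change -0.11, adjusted p = 0.231). The libraries labelled knockout are therefore called knockout-labelled below. Mitochondrial genes took 23.8% to 23.9% of the counts in knockout-labelled libraries and 36.2% in wild type. The smooth muscle markers fixed for the labelled tissue summed to 24980 to 25110 CPM in knockout-labelled libraries and 31510 to 31770 CPM in wild type. Most of that gap was Eln, since the other 9 summed to 20540 to 20680 CPM in knockout-labelled libraries and 21350 to 21490 CPM in wild type. The part of these genes in the results below was not tested.

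Every one of the 164 segments has a transcript in GENCODE M21 on mouse build GRCm38, with 2 exons and a length of 334 to 501 bases (median 359). The deposited coordinates of all 164 equal those of that release. The Ighv segments lie on chromosome 12, the Igkv segments on chromosome 6 and the Iglv segments on chromosome 16. The last 120 bases of 5 transcripts are shown because these segments lead a library or are among those with most counts of their locus. They are Ighv6-3 (chr12:114391712-114392169, minus strand), Igkv1-117 (chr6:68121046-68121827, plus strand), Igkv10-96 (chr6:68631963-68632442, minus strand), Iglv2 (chr16:19260401-19260859, minus strand) and Iglv1 (chr16:19085017-19085500, minus strand). Sequences are from GENCODE M21, 5′ to 3′ on the coding strand. Capitals mark a match to TANTNNTGN. In the 5 shown it reads tyrosine, a second residue and the conserved cysteine at which the segment's own contribution to the antigen-binding loop begins. The pattern also admits other codons, stop codons among them.
Ighv6-3: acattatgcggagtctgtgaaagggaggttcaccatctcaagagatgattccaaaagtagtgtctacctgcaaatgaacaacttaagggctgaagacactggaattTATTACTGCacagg
Igkv1-117: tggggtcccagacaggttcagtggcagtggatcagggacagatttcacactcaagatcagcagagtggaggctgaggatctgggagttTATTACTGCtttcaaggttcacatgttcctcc
Igkv10-96: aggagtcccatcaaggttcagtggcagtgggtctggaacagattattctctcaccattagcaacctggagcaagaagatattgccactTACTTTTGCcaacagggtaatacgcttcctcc
Iglv2: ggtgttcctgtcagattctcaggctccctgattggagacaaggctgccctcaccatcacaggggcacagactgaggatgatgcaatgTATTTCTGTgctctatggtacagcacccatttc
Iglv1: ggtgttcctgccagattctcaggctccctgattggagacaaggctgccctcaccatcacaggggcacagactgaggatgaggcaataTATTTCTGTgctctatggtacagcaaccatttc
The motif was searched in any frame on the coding strand of the last 45 bases. It occurred in 158 of the 164 segments (96.3%), against 3.89% of 141342 other transcripts searched in the same way.

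V segment RNA was more abundant in the knockout-labelled aortas. The segments summed to 66.8, 66.4 and 66.2 CPM in the knockout-labelled libraries and to 17.9, 21.5 and 35.9 CPM in wild type. The knockout-labelled libraries lay within 1 CPM of each other, while wild type replicate 3 held about double the level of wild type replicate 1, and the groups did not overlap. The means were 66.5 ± 0.290 CPM in knockout-labelled and 25.1 ± 9.53 CPM in wild type libraries (SD, n = 3 each), a ratio of 2.65. Scaled to library totals the ratio was 3.52. No p-value is given for a sum over chosen segments. In bulk tissue, more cells of the B lineage and more immunoglobulin RNA per cell cannot be told apart. The amounts behind these levels are small, 1364, 1463 and 1388 read pairs in knockout-labelled libraries and 259, 318 and 596 in wild type. At such numbers counting error alone exceeds the knockout-labelled SD of 0.290 CPM, so that SD does not give the precision of the level.

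All 3 loci had more RNA in each knockout-labelled library than in any wild type library. The heavy chain segments summed to 26.8, 29.0 and 27.9 CPM in knockout-labelled libraries and 6.20, 7.74 and 12.03 CPM in wild type, a ratio of 3.22 between the means. The kappa segments stood at 34.2, 31.3 and 32.9 CPM in knockout-labelled libraries and 9.95, 12.6 and 21.4 CPM in wild type, a ratio of 2.24. The lambda segments, of which the mouse has very few, stood at 5.85, 6.06 and 5.40 CPM in knockout-labelled libraries and 1.74, 1.14 and 2.50 CPM in wild type, a ratio of 3.22. Kappa remained the most abundant locus in both groups. Heavy chain segments took 42.0% ± 1.79 of V counts in knockout-labelled libraries and 34.8% ± 1.27 in wild type (SD, n = 3 each), and the ranges did not overlap.

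**Figure D1:**
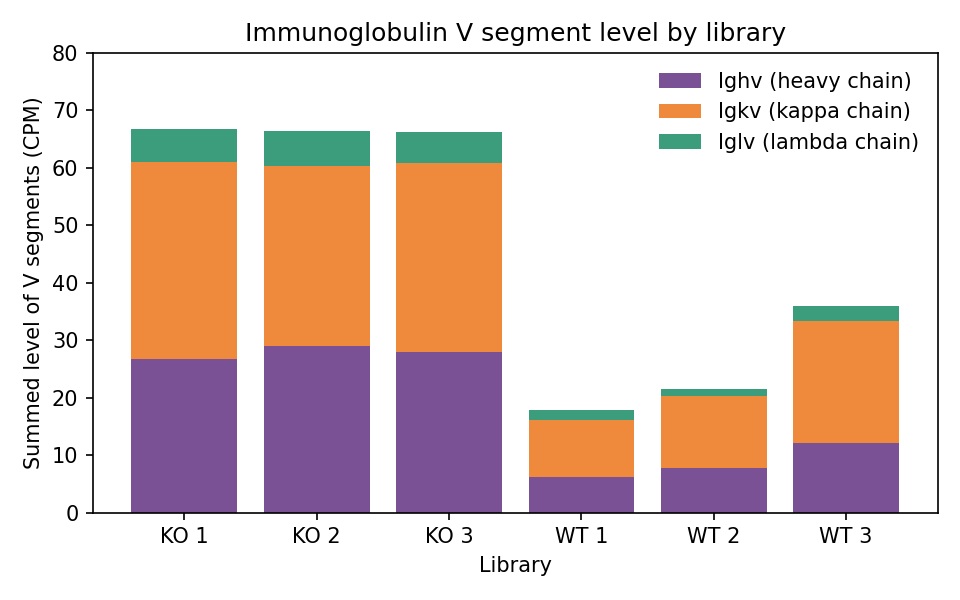
Summed level of the V segments in each of the 6 libraries, in CPM after TMM scaling, stacked by locus. The 3 knockout-labelled libraries (KO) reach 66.2 to 66.8 CPM and the 3 wild type libraries (WT) 17.9 to 35.9 CPM, with kappa segments the largest part of each bar.

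The reads were carried by many segments in every library. At least 4 counts, about 1 read pair, were found for 123, 133 and 136 segments in knockout-labelled libraries and for 64, 80 and 102 in wild type. At a minimum of 12 counts the numbers were 97, 106 and 100 in knockout-labelled libraries and 31, 31 and 57 in wild type. Such counts depend on depth. With every library thinned to the 259 V read pairs of the smallest, 89.0, 91.2 and 91.0 segments were expected with at least 1 read pair in knockout-labelled libraries and 75.0, 81.1 and 87.1 in wild type. The difference between the means was then 9.33 segments, against 48.7 without thinning, and the groups still did not overlap. These differences also follow different minima. Thinning used counts rounded to whole read pairs, so fewer than 4 counts could make 1 pair. Wild type replicate 1, from which nothing was removed, therefore stood at 75.0 after thinning and at 64 before. At a minimum of 1 count the difference was 44.0 segments.

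The evenness of use was measured as well. The effective number of segments, the exponential of the Shannon entropy, is the number of equally used segments that would give the same entropy. It was 74.7, 80.2 and 82.0 in knockout-labelled libraries and 52.3, 58.3 and 62.6 in wild type. After thinning it was 60.9, 63.7 and 65.3 in knockout-labelled libraries and 54.5, 57.3 and 55.6 in wild type. The thinned values rest on rounded read pairs, so wild type replicate 1 rose although nothing was removed from it. The inverse Simpson index, which is ruled by the most used segments and is corrected for sampling, was 48.5, 54.2 and 58.9 in knockout-labelled libraries and 49.5, 49.2 and 40.2 in wild type, and here the groups overlapped. The 10 leading segments took 37.1%, 34.5% and 32.7% of V counts in knockout-labelled libraries and 38.9%, 37.9% and 42.2% in wild type. The first 50% of V counts came from 20, 20 and 21 segments in knockout-labelled libraries and from 15, 16 and 14 in wild type, and 90% of them from 77, 82 and 80 in knockout-labelled libraries and from 49, 57 and 68 in wild type. These numbers and the share of the 10 leading segments were not recomputed after thinning, so depth bears on them.

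**Figure D2:**
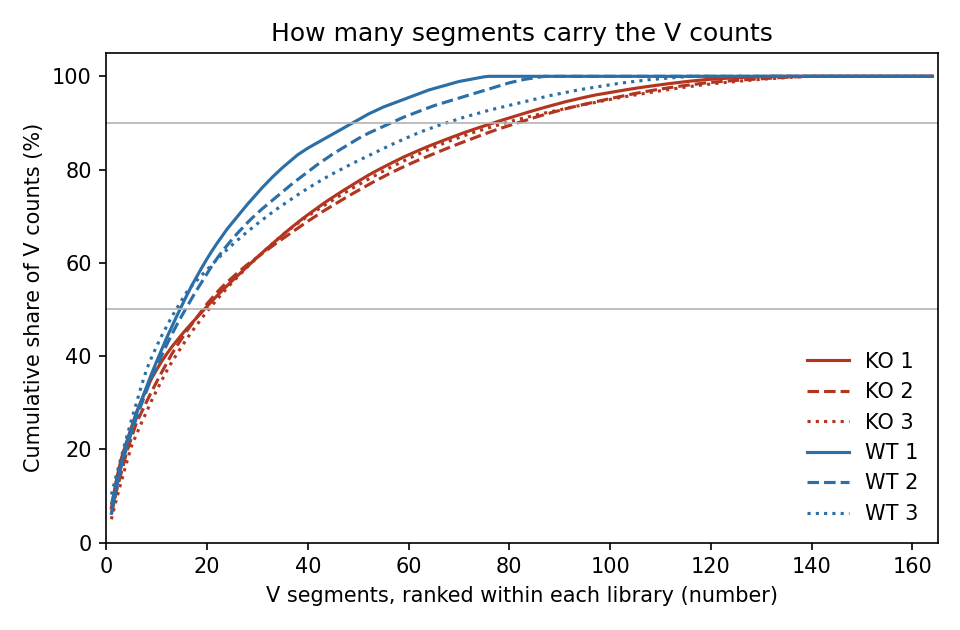
Cumulative share of V counts (percent) against the number of V segments, ranked within each library, with grey lines at 50% and 90%. The 3 wild type curves (WT) pass 50% at 14 to 16 segments and the 3 knockout-labelled curves (KO) at 20 or 21. Counts were not thinned.

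The leading segment was not the same in both groups. Ighv6-3 led all 3 knockout-labelled libraries, with 7.47%, 6.08% and 5.01% of V counts, and took 0.608%, 0.984% and 3.68% in wild type. Igkv1-117 led all 3 wild type libraries, with 6.28%, 8.20% and 10.3% of V counts. The deposited FPKM, which allow for length, gave the same leader in every library.

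Of the 164 segments, 90 passed edgeR's filter on low counts and 74 did not. This filter is no neutral choice, since 58 of the 90 reached its level of 0.141 CPM in all 3 knockout-labelled libraries but not in all 3 wild type libraries, and only 1 the other way round. Among the 90, 31 were higher in knockout-labelled libraries at an adjusted p under 0.05 (edgeR's quasi-likelihood test, Benjamini-Hochberg over 20132 genes), where 13.2% of all genes tested were higher. They comprised 16 of 41 Ighv, 13 of 46 Igkv and 2 of 3 Iglv. None was lower, where 11.5% of all genes were. None was lower either at an unadjusted p under 0.05 or with DESeq2 or limma, while 42 were higher at an unadjusted p under 0.05. The other 59 did not pass. The median log2 fold change was 1.77 over the 90, and 0.00 over all genes tested, 72 of the 90 lying above 0 and 18 below. Of the 22 segments that reached the filter level in all 6 libraries, 5 were higher.

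In 55 of the 90 segments tested, every knockout-labelled library lay above every wild type library, which held for 21.3% of all genes tested. In 1, Ighv2-7, every knockout-labelled library lay below, against 19.8% of all genes. The filter bears on both numbers, since 29 of the 90 reached its level in no wild type library. DESeq2 called 44 of the 90 higher, against 17.4% of all genes. With library totals 46 of 90 were higher, against 46.8% of all genes. With limma on log2(FPKM + 1) 72 of 132 were higher, against 47.5% of all genes, so under both of these scalings the share of segments was near the share of genes. Fewer segments were called with 1 knockout-labelled library left out, and so were fewer genes. Without knockout-labelled replicate 1, 2 or 3 the number higher was 19 of 102, 18 of 97 and 22 of 98. The shares of all genes were 9.5%, 9.3% and 9.5%. Of the 31 segments, 14 remained called whichever library was left out.

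Among heavy chain segments, Ighv6-3 had most counts, with 401, 352 and 276 in knockout-labelled libraries and 6, 12 and 85 in wild type. Wild type replicate 3 stood well above the other two and below each knockout-labelled library. The log2 fold change was 2.88 ± 0.66 (SE, adjusted p = 0.00837, edgeR), and without wild type replicate 3 it was 4.67 (adjusted p = 3.28e-05). Ighv3-6 had 175, 93 and 140 counts in knockout-labelled libraries and 4, 4 and 16 in wild type, with no overlap. Its log2 fold change was 3.61 ± 0.57 (SE, adjusted p = 0.000792, edgeR), and 4.49 without wild type replicate 3. Ighv9-3 had 65, 128 and 117 counts in knockout-labelled libraries and 11, 10 and 17 in wild type. The wild type libraries were close to each other here, and the log2 fold change was 2.51 ± 0.47 (SE, adjusted p = 0.00237, edgeR).

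Other heavy chain segments among the most abundant showed less or no difference. Ighv8-12 had 102, 83 and 85 counts in knockout-labelled libraries and 4, 21 and 14 in wild type (log2 fold change 2.29, adjusted p = 0.0143, edgeR). That call was lost without knockout-labelled replicate 1 (adjusted p = 0.0633, edgeR), and the log2 fold change was 2.87 without wild type replicate 2. Ighv1-26 had 50, 54 and 52 counts in knockout-labelled libraries and 23, 38 and 92 in wild type, so the groups overlapped (log2 fold change -0.43, adjusted p = 0.596, edgeR, and 0.20 without wild type replicate 3). Ighv1-82 had 46, 71 and 68 counts in knockout-labelled libraries and 31, 23 and 40 in wild type. It was higher in CPM on average without passing the test (log2 fold change 0.47, adjusted p = 0.509, edgeR).

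The kappa segments included both kinds of behaviour. Igkv1-117, the leader in wild type, had 134, 186 and 216 counts in knockout-labelled libraries and 62, 100 and 238 in wild type. In CPM this was 2.13 ± 0.464 in knockout-labelled libraries and 2.19 ± 1.34 in wild type (SD, n = 3 each), and the groups overlapped. The log2 fold change was -0.05 ± 0.40 (SE, adjusted p = 0.954, edgeR), and 0.57 without wild type replicate 3. Igkv10-96 had 249, 237 and 213 counts in knockout-labelled libraries and 19, 48 and 79 in wild type, and no library of one group reached the other. Its log2 fold change was 1.78 ± 0.40 (SE, adjusted p = 0.00702, edgeR). Igkv1-110 had 116, 131 and 136 counts in knockout-labelled libraries and 28, 36 and 41 in wild type (log2 fold change 1.36, adjusted p = 0.0112, edgeR). Both groups were tight for this segment. Igkv1-135 had 184, 95 and 94 counts in knockout-labelled libraries and 26, 34 and 89 in wild type, where the groups overlapped in CPM and the test did not pass (adjusted p = 0.227, edgeR). Its log2 fold change was 0.87, and 1.49 without wild type replicate 3.

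Igkv6-17 and Igkv6-25 were absent from the counts of wild type replicate 1. Igkv6-17 had 172, 192 and 130 counts in knockout-labelled libraries and 0, 7 and 30 in wild type (log2 fold change 3.28, adjusted p = 0.0112, edgeR). Igkv6-25 had 96, 127 and 132 counts in knockout-labelled libraries and 0, 4 and 13 in wild type (log2 fold change 3.89, adjusted p = 0.00348, edgeR). These fold changes rest on few wild type reads and moved to 4.95 and 5.25 without wild type replicate 3. They moved to 2.72 and 3.34 without wild type replicate 1. The lambda segments Iglv2 and Iglv1 were present in all libraries. Iglv2 had 324, 287 and 237 counts in knockout-labelled libraries and 53, 43 and 86 in wild type (log2 fold change 1.73 ± 0.29 SE, adjusted p = 0.00107, edgeR). Iglv1 had 136, 239 and 201 counts in knockout-labelled libraries and 43, 22 and 52 in wild type (log2 fold change 1.79 ± 0.36 SE, adjusted p = 0.00408, edgeR). Neither overlapped between the groups.

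**Figure D3:**
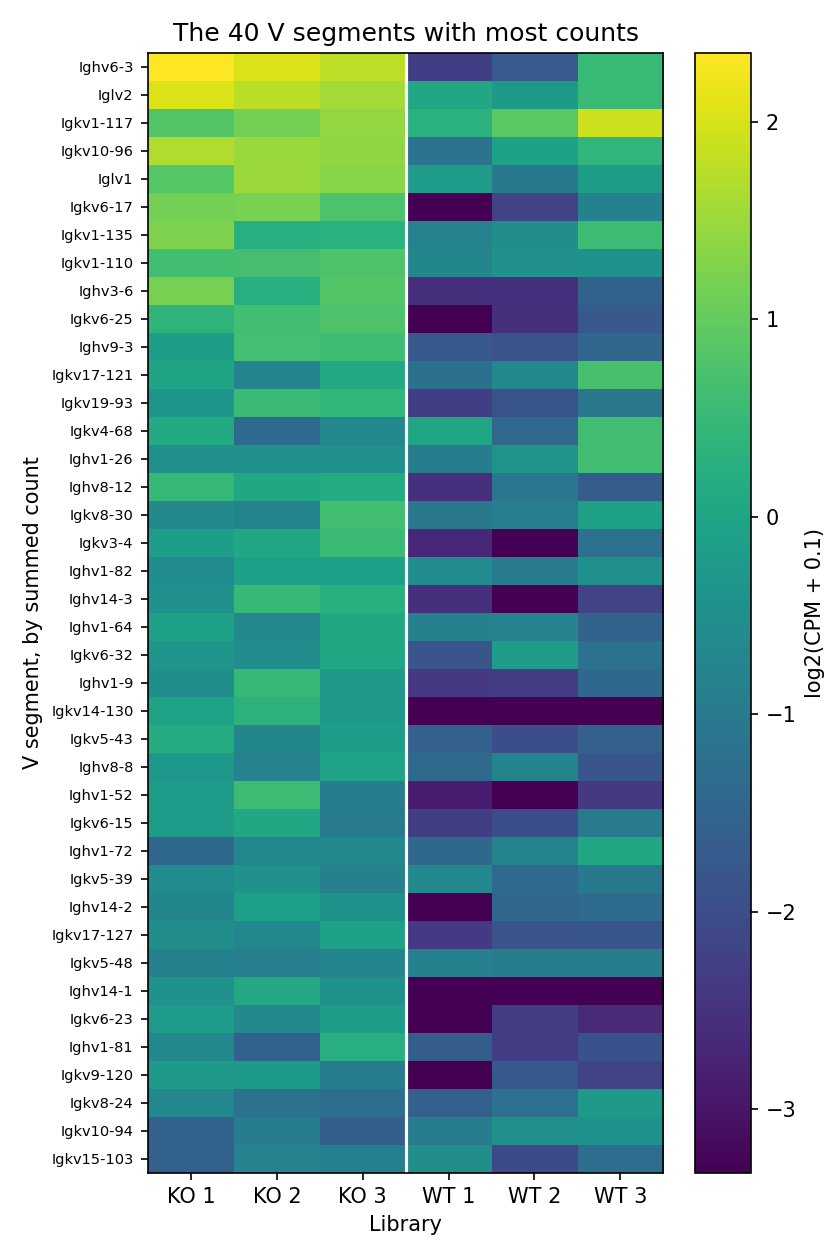
Level of the 40 V segments with most counts, as log2(CPM + 0.1), 1 line per segment and 1 column per library, knockout-labelled (KO) left and wild type (WT) right of the white line. Ighv6-3 is the brightest entry of the KO columns and Igkv1-117 of the WT columns, and Igkv14-130 and Ighv14-1 are at the lowest colour in all 3 WT libraries.

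Of the 164 segments, 111 had counts in all 3 knockout-labelled libraries and 49 in all 3 wild type libraries, and 47 in all 6. Of the 164, 32 had no count in any wild type library and 4 none in any knockout-labelled library. These numbers were not thinned, and knockout-labelled libraries held 1364 to 1463 V read pairs against 259 to 596 in wild type. No share over all genes stands beside them, so they do not show that segments are missing from wild type. The 32 held 9.12% of the V counts of the knockout-labelled libraries, and 17 of them were found in all 3. A count of 0 allows up to 3 read pairs (12 counts), which is 0.205 CPM on average over the wild type libraries and covers counting error only. Igkv14-130 had 71, 101 and 61 counts in knockout-labelled libraries and 0 in each wild type library, so it was at least 4.51-fold higher against that floor (adjusted p = 0.000297, edgeR). Ighv14-1 had 51, 85 and 53 counts in knockout-labelled libraries and 0 in each wild type library, at least 3.65-fold higher (adjusted p = 0.000676, edgeR). Both met the minimum and the filter through knockout-labelled counts alone and were named for their small p. Their p-values are therefore descriptive and no independent support.

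Of the 90 segments tested, 18 had a negative fold change and none of these passed the test. The filter bears on that number. Only 1 tested segment reached its level in all 3 wild type but not all 3 knockout-labelled libraries. Igkv10-94 had 19, 37 and 19 counts in knockout-labelled libraries and 23, 35 and 42 in wild type (log2 fold change -0.92, adjusted p = 0.313, edgeR). Ighv2-7 had 7, 14 and 0 counts in knockout-labelled libraries and 22, 11 and 17 in wild type (log2 fold change -1.76, adjusted p = 0.326, edgeR, and -2.66 to -1.19 without 1 knockout-labelled library). Igkv13-85 had 17, 20 and 29 counts in knockout-labelled libraries and 12, 54 and 12 in wild type, where 1 wild type library stood apart (log2 fold change -0.77, adjusted p = 0.545, edgeR, and 0.38 without wild type replicate 2).

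V segments fall into families of related sequence, the first number of each name. The 164 segments made up 35 families, and 28 of these had 100 or more counts over all libraries. In 19 of the 28 every knockout-labelled library lay above every wild type library, as it did in 21.3% of single genes tested. The largest, Ighv1 with 42 segments, stood at 9.96, 12.6 and 10.99 CPM in knockout-labelled libraries and 3.12, 4.47 and 6.38 CPM in wild type, a ratio of 2.41. Ighv14 stood at 2.21, 3.52 and 3.07 CPM in knockout-labelled libraries and 0.0725, 0.334 and 0.419 CPM in wild type, a ratio of 10.7. Igkv14 had a ratio of 9.63, Ighv3 of 8.06, Ighv6 of 6.78 and Igkv6 of 4.81, each without overlap. Without wild type replicate 3, whose Ighv6-3 count was high for its group, the Ighv6 ratio was 18.2. Igkv1, Igkv8 and Ighv5 had ratios of 1.51, 1.22 and 1.36 with overlap, the first of them holding both Igkv1-117 and Igkv1-110.

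The 4 Ighv14 segments are shown over a stretch of 150 bases because they differ little from each other, which bears on how reads were assigned. Ighv14-1 (chr12:113931953-113932382), Ighv14-4 (chr12:114176438-114176867), Ighv14-2 (chr12:113994469-113994898) and Ighv14-3 (chr12:114059845-114060321) all lie on the minus strand. In the first line capitals mark bases at which any of the others differs, and in the other lines bases that differ from Ighv14-1.
Ighv14-1: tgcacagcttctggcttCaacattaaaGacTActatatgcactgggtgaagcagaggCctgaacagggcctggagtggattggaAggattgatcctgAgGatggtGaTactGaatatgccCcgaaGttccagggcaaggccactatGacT
Ighv14-4: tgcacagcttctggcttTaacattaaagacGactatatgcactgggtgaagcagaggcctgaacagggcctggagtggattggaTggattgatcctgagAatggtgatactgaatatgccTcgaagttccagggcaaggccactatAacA
Ighv14-2: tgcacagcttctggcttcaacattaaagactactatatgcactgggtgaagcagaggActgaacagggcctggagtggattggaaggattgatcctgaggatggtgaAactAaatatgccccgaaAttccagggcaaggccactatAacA
Ighv14-3: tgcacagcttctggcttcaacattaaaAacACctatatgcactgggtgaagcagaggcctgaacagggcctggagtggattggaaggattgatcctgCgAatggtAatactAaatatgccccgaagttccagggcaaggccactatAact
Over 351 aligned bases Ighv14-4 differs from Ighv14-1 at 9 positions (97.4% identity), Ighv14-2 at 10 (97.2%) and Ighv14-3 at 13 (96.3%). Ighv14-3 had 51, 112 and 93 counts in knockout-labelled libraries and 4, 0 and 8 in wild type, a read pair ratio of 15.0 (95% counting interval 4.91 to 74.7). Ighv14-4 had 35, 38 and 57 counts in knockout-labelled libraries and 0, 4 and 0 in wild type (adjusted p = 0.0199, edgeR), and Ighv14-3 also passed (adjusted p = 0.00541, edgeR). Ighv14-2 had 41, 72 and 53 counts in knockout-labelled libraries and 0, 15 and 19 in wild type and did not pass (adjusted p = 0.197, edgeR). These 3 were named after their values were seen.

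Igkv1-117 and Igkv1-110 (chr6:68270485-68271267, plus strand) are the closest pair among the abundant kappa segments and gave different results, so they are shown likewise, with capitals where they differ.
Igkv1-117: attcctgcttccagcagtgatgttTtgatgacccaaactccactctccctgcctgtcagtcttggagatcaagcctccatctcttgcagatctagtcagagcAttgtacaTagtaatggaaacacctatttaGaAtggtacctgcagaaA
Igkv1-110: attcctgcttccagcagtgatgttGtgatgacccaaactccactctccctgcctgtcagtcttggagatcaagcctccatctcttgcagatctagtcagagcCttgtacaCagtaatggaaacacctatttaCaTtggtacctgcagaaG
They differ at 10 of 401 aligned bases (97.5% identity). In all, 34 of the 164 segments had another segment at 97% or more identity over at least 100 bases, and no source used here says how the authors' counting split such reads. With similar segments joined, 149 entries were left, and the number with at least 4 counts differed by 43.0 between the group means, against 48.7 before. Somatic mutation and the joined ends of a rearranged chain also differ from the reference, and their part in the counts was not tested.

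Levels were also compared along both large loci. Segments were split into the nearest, middle and farthest part by distance from the J segments of their locus. For Ighv the ratio of the group means was 3.84 in the nearest part, 3.62 in the middle and 2.53 in the farthest, with 5 of 14, 5 of 10 and 6 of 17 tested segments higher, where 13.2% of all genes were. For Igkv it was 2.87, 1.91 and 2.12, with 5 of 16, 2 of 14 and 6 of 16 higher, the middle part being near the 13.2% of all genes. The farthest Igkv part, beyond 1888.2 kb, took 48.5%, 49.9% and 45.9% of Igkv counts in knockout-labelled libraries and 51.4%, 47.1% and 53.0% in wild type, so the groups overlapped.

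**Figure D4:**
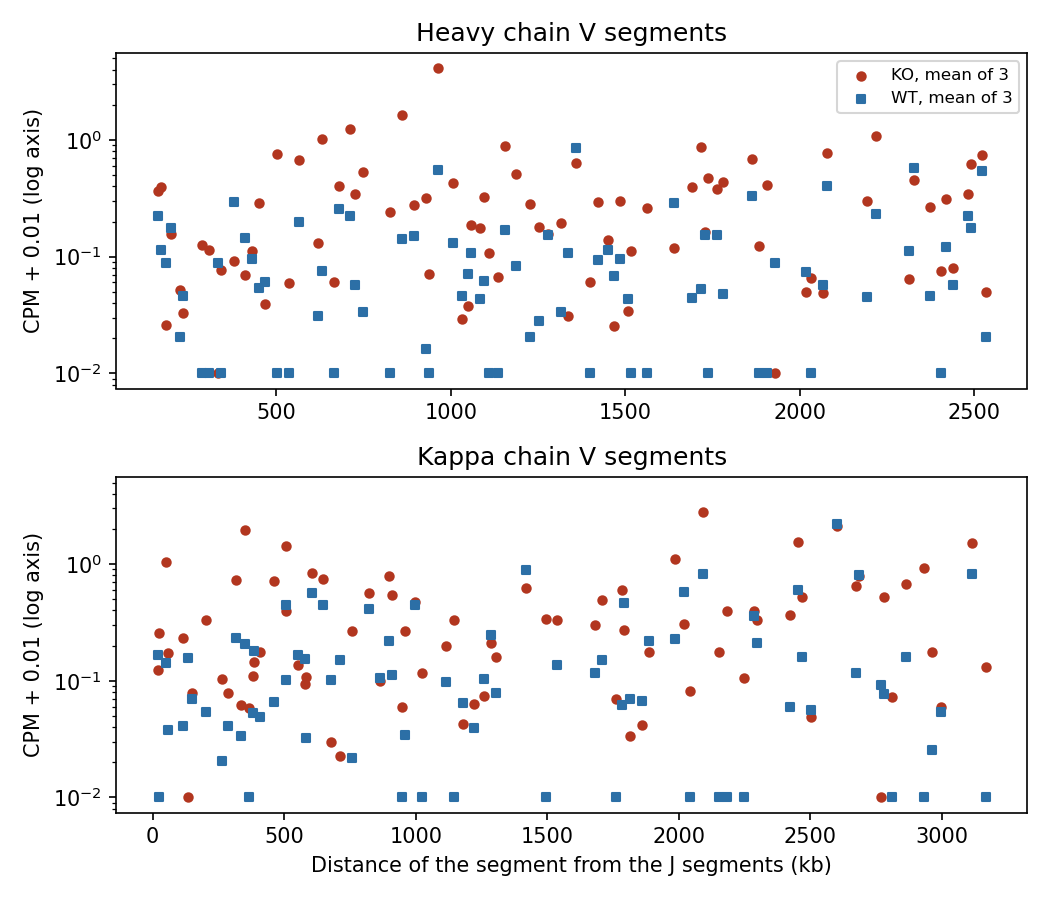
Mean CPM of each Ighv segment (top) and Igkv segment (bottom) on a log axis, with 0.01 added, against its distance in kb from the J segments, as red circles for the 3 knockout-labelled libraries (KO) and blue squares for the 3 wild type libraries (WT). Points at the lowest level are segments with no count in that group, 32 in WT and 4 in KO over all 3 loci, without thinning.

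Libraries of the same group shared their segments. The Morisita-Horn index of segment shares, 1 for equal use and 0 for none in common, was 0.916 to 0.942 for the 3 pairs of knockout-labelled libraries, 0.755 to 0.835 for the 3 wild type pairs, and 0.587 to 0.721 for the 9 pairs of a knockout-labelled and a wild type library. It falls with few reads. The Morisita index on read pairs, which allows for sampling and was added after the data were seen, was 0.953 to 0.979 within knockout-labelled, 0.888 to 0.921 within wild type and 0.657 to 0.766 between the groups. For segments with a mean of 30 to 100 counts, the median variance over mean between libraries was 4.27 in knockout-labelled (44 segments) and 11.7 in wild type (13 segments), against 5.78 and 6.48 for other genes of that level in the same groups. In the knockout-labelled libraries it was 3.88 for 48 segments at 10 to 30 counts and 8.83 for 11 segments at 100 to 400 counts, against 5.46 and 6.11 for other genes, so the most abundant segments varied more than other genes. Counting read pairs alone would give about 4 in this unit. Whether libraries of a group came from separate animals or from shared material cannot be told apart here.

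The constant regions differed by class. Igha, the constant region of IgA, stood at 73.8, 73.0 and 78.4 CPM in knockout-labelled libraries and 8.67, 10.1 and 14.1 CPM in wild type (log2 fold change 2.77 ± 0.14 SE, adjusted p = 1.12e-07, edgeR). Ighg1, that of IgG1, stood at 6.39, 6.10 and 5.99 CPM in knockout-labelled libraries and 0.399, 0.774 and 1.01 CPM in wild type (log2 fold change 3.07 ± 0.30 SE, adjusted p = 2.01e-05, edgeR). Neither class overlapped between the groups. The light chain regions Igkc (log2 fold change 1.55) and Iglc2 (1.83) and the heavy chain region Ighg2b (0.78) were higher too, the last of these not without wild type replicate 1 (adjusted p = 0.0550, edgeR) or knockout-labelled replicate 3 (adjusted p = 0.0566, edgeR). Ighm, the IgM region that B cells carry before class switching, stood at 13.9, 16.8 and 14.7 CPM in knockout-labelled libraries and 18.3, 23.0 and 26.0 CPM in wild type. It was lower (log2 fold change -0.57, adjusted p = 0.00736, edgeR), but not with library totals (log2 fold change -0.16, adjusted p = 0.348).

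Among the 12 constant regions listed, 11 were tested, of which 5 were higher, 1 lower and 5 not past the threshold, where 13.2% of all genes were higher and 11.5% lower. The last were Ighg2c, Ighg3, Ighd, Iglc1 and Iglc3, with log2 fold changes of 0.46, -0.50, 0.11, 1.32 and -0.69, and that of Ighd was -0.23 without wild type replicate 1 and 0.72 without replicate 3. Ighe was not tested. Igha took 57.3%, 53.5% and 55.8% of heavy constant region counts in knockout-labelled libraries and 17.6%, 18.3% and 17.6% in wild type. The share of Ighm was 10.8%, 12.3% and 10.5% in knockout-labelled libraries and 37.1%, 41.7% and 32.5% in wild type. Ighv counts per heavy constant region count were 0.208, 0.213 and 0.199 in knockout-labelled libraries and 0.126, 0.141 and 0.150 in wild type. Igkv counts per Igkc count went the other way, at 0.694, 0.576 and 0.606 in knockout-labelled libraries and 0.859, 0.786 and 0.819 in wild type.

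Markers of B cells did not follow the V segments. Of 20 B cell markers listed, 19 were tested, 0 were higher by edgeR (0 at an unadjusted p under 0.05) and 1 lower, with a median log2 fold change of -0.42, and their summed level was 17.6 to 21.9 CPM in knockout-labelled libraries and 27.1 to 37.7 CPM in wild type. Without Cd72 the sums overlapped, at 12.8, 15.0 and 15.7 CPM in knockout-labelled libraries and 13.8, 14.2 and 23.4 CPM in wild type. The one lower was Cd72, a B cell surface inhibitor also found on other immune cells, at 4.79, 5.69 and 6.21 CPM in knockout-labelled libraries and 13.3, 14.3 and 14.3 CPM in wild type (adjusted p = 2.35e-05, edgeR). Pax5, the B lineage transcription factor, Ralgps2 and Ly6d did not pass, with log2 fold changes of -1.02, 0.38 and 1.80.

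Of 16 plasma cell genes listed, 15 were tested, 2 were higher, 1 lower and 12 did not pass, so the share higher was near the 13.2% of all genes. Jchain, which joins the units of IgA and IgM, stood at 18.6, 17.8 and 19.0 CPM in knockout-labelled libraries and 6.96, 6.17 and 9.25 CPM in wild type (log2 fold change 1.30, adjusted p = 5.54e-05, edgeR). Cd38, a surface enzyme of many cell types, was higher by 0.54 on the log2 scale (adjusted p = 0.0278, edgeR), but not without wild type replicate 1 or any 1 of the knockout-labelled libraries (adjusted p 0.0607 to 0.103). Fkbp11, a chaperone of secretory cells, was lower by a log2 fold change of -0.80 (adjusted p = 0.0197, edgeR), and not with library totals (adjusted p = 0.164) or without wild type replicate 3, knockout-labelled replicate 2 or 3 (adjusted p 0.0844 to 0.0877). Tnfrsf13b, a receptor for B cell survival factors, had a log2 fold change of -1.54 and did not pass (adjusted p = 0.0610, edgeR). Xbp1 and Sdc1, which other cells of the aorta also express, had log2 fold changes of -0.09 and 0.03.

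**Figure D5:**
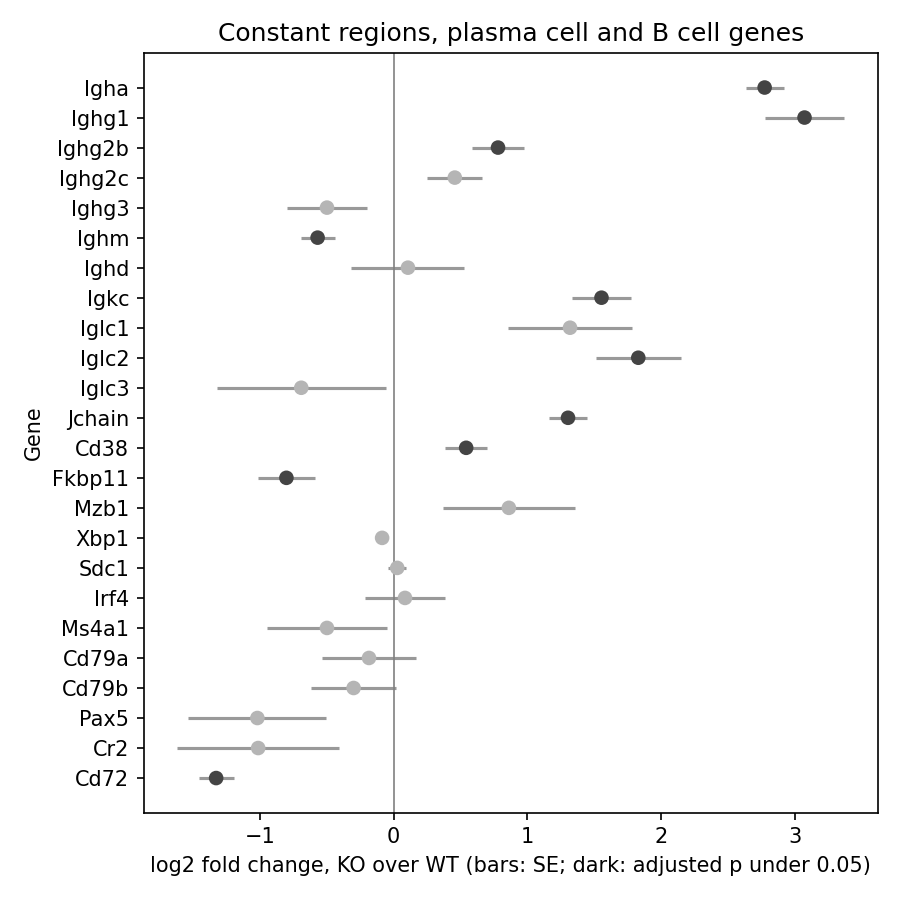
Log2 fold change, knockout-labelled over wild type, with SE bars (edgeR, 3 libraries a group), for constant regions, plasma cell and B cell genes. Dark points passed an adjusted p of 0.05, with Ighg1 (3.07) and Igha (2.77) farthest right and Ighm (-0.57), Fkbp11 (-0.80) and Cd72 (-1.33) the dark points left of 0.

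Genes of V(D)J recombination and of precursor cells were also measured. Of 8 listed, 7 are in the table, 4 were tested and 3 were higher, where 13.2% of all genes were. Rag1, 1 of the recombinase subunits, stood at 1.77, 0.745 and 2.58 CPM in knockout-labelled libraries and 0.0725, 0.0528 and 0 CPM in wild type (adjusted p = 0.00051, edgeR). Dntt, the enzyme that adds bases at the joints, stood at 1.28, 1.09 and 1.07 CPM in knockout-labelled libraries and 0, 0.229 and 0 CPM in wild type (adjusted p = 0.0186, edgeR), a call lost with DESeq2 (adjusted p = 0.0942) and without any 1 knockout-labelled library (adjusted p 0.0553 to 0.0661). Both enzymes also work in developing T cells. Cd93, which endothelium expresses as well, was higher by 0.45 on the log2 scale (adjusted p = 0.000236, edgeR), and Il7r did not pass (log2 fold change -1.32, adjusted p = 0.0552). The genes not tested went both ways. Igll1 had 0, 0 and 4 counts in knockout-labelled libraries and 5, 20 and 8 in wild type. Vpreb1 had 9, 3 and 8 against 2, 0 and 0, and Rag2 had 21, 4 and 35 against 0, 0 and 0. These were named after their values were seen.

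Of the genes for B cell recruitment and survival, 9 of 10 were tested, 2 were higher and 2 lower, where 13.2% and 11.5% of all genes were. Cxcl13, the chemokine that draws B cells, stood at 4.18, 4.09 and 2.91 CPM in knockout-labelled libraries and 1.36, 1.95 and 1.99 CPM in wild type (log2 fold change 1.07, adjusted p = 0.00882, edgeR). Tnfsf13b, the survival factor BAFF, was higher by 0.61 on the log2 scale (adjusted p = 0.00193, edgeR). Cxcl12 was lower at a log2 fold change of -0.32 (adjusted p = 1.26e-05, edgeR), but called higher with library totals (0.088, adjusted p = 0.0263, edgeR). Il6 was lower at -2.03 (adjusted p = 0.000803, edgeR). Of 10 class switch and hypermutation genes, 9 were tested, 0 were higher by edgeR (0 at an unadjusted p under 0.05) and 2 were lower, Fas among them. The log2 fold change of Fas was -0.23 (adjusted p = 0.0338, edgeR), but it was called higher with library totals (0.18, adjusted p = 0.0474, edgeR).

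The V segments of the T cell receptor did not follow those of immunoglobulin. The 25 with 12 or more summed counts stood at 1.37, 1.88 and 0.925 CPM in knockout-labelled libraries and 2.63, 1.76 and 2.39 CPM in wild type, and the groups overlapped. T cell markers nevertheless summed to 17.5 to 20.4 CPM in knockout-labelled libraries and 9.70 to 15.5 CPM in wild type, with 5 of 14 higher, among them Cd8a (log2 fold change 2.38) and Trbc2 (1.34). Markers of other cell types moved too. Endothelial markers were higher in 8 of 8 genes (Vwf, log2 fold change 1.10), at 792.9 to 797.5 CPM in knockout-labelled libraries and 435.9 to 449.0 CPM in wild type. Adipocyte markers were higher in 6 of 10 (Adipoq, 0.93), at 711.6 to 715.4 CPM in knockout-labelled libraries and 543.3 to 574.8 CPM in wild type. Macrophage markers were lower in 10 of 12 (C1qb, -1.15), at 300.9 to 308.8 CPM in knockout-labelled libraries and 463.3 to 488.1 CPM in wild type. Fibroblast markers were lower in 7 of 8 (Col1a1, -0.87). Smooth muscle markers were divided, with 4 of 10 higher (Myh11, 0.27), 4 lower (Eln, -1.20) and a median log2 fold change of 0.04. Over all genes tested, 13.2% were higher and 11.5% lower. With library totals the fold change turned above 0 for 1 of the 10 macrophage, 6 of the 7 fibroblast and 2 of the 4 smooth muscle genes. The part of these markers in the V segment levels was not tested.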

How the data were processed

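RNA was measured in 6 mouse aorta libraries, 3 per group. Per the labels' protocols, polyadenylated RNA was sequenced in pairs. Per the submitters' processing notes, Bowtie 0.12.2, HISAT2 2.0 and build mm8 were used, with no role given. The deposited gene coordinates equal those of GENCODE M21 on GRCm38 for 86.3% of 40913 shared genes, so that build is named here. The counting tool and annotation, and the use of strand, were not given in the sources used here. Per the file headers the authors deposited estimated counts, written as whole numbers, and FPKM, scaled by the authors to length and library total. Rounding before testing changed no count.

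Genes passing filterByExpr were TMM-scaled and tested with edgeR 4.0.16 (quasi-likelihood, Benjamini-Hochberg over 20132 genes) in R 4.3.3; the steps were tested on simulated data. Of all genes tested, 4981 passed. The SE given with edgeR was derived as the size of the log2 fold change divided by the square root of the F statistic. Alternatives used DESeq2 1.42.0, limma 3.58.1, other scalings and filters, counts divided by 4, a replicate block and each library left out. Similarity used BLAST+ 2.17.0. The marker sums without Cd72 and without Eln were added after the data were seen. Floors and intervals cover counting error only.

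The segments and gene lists were chosen with earlier results of these data known. Named were the segments with most counts (6 Ighv, 6 Igkv, 2 Iglv), those with the smallest p (6 higher, 3 below 0), leaders of a library, constant regions, Jchain, up to 4 genes per list and Josd2. Promoter and protein sequences of these segments were not used here. Of the listed genes, 1 is not reported here by name.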

Additional observations from a re-analysis of the deposited data

How the results depend on the processing

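The number of V segments called higher (31) was 19 of 30 with counts divided by 4, where 17.2% of all genes were higher. All 19 were among the 31. The number was 72 and 75 of 132 with limma on log2(FPKM + 1) and log2(FPKM + 0.1), against 47.5% and 47.4% of all genes. With 1 library left out it was 18 to 33. That was 18.6% to 31.4% of the segments tested, against 9.255% to 11.35% of all genes. No segment was called lower under any alternative run. All genes called were 4981, against 10193 with library totals and 10085 and 10086 with the limma fits. Same-numbered libraries did not deviate together (correlations -0.00082, -0.0288 and -0.0181). Such correlations cannot show whether the numbers mark a pairing, such as shared handling. With the replicate block 22 of 90 segments were higher, against 12.2% of all genes. The log2 ratio of the summed level (1.41) was 1.82 with library totals and 1.85 on deposited FPKM. The difference in segments with counts (48.7) was 25.7 for Ighv and 22.7 for Igkv alone. It was 9.33 after thinning, where rounding to read pairs also lowered the minimum. The difference in effective number (21.2) was 7.48 after thinning, 37.1 at a minimum of 12 counts, 8.65 for Ighv and 13.3 for Igkv. That in the share of the 10 leading segments (-4.87 percentage points) was -14.8 at that minimum and -11.4 for Igkv, and it was not recomputed after thinning. The causes were not tested.

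The sign of some fold changes turned. With library totals and the limma fits at +1 and +0.1, Igkv1-117 stood at 0.36, 0.40 and 0.51, Fas at 0.18, 0.17 and 0.18, and Cxcl12 at 0.088, 0.083 and 0.087. Fas was called higher in each of these fits (adjusted p = 0.0474, edgeR, and 0.0332 and 0.0329, limma). Cxcl12 was called higher with library totals alone (adjusted p = 0.0263, edgeR, against 0.0566 and 0.058, limma). Igkv1-117 passed in none of them. Ighv1-26 stood at 0.068 and 0.16 in the limma fits. With the replicate block Igkv1-117 was at 0.10. With 1 library left out, Igkv1-117 ranged from -0.35 to 0.57, Ighv1-26 from -0.75 to 0.20, Igkv13-85 from -1.14 to 0.38 and Ighd from -0.23 to 0.72. Of the remaining single-gene values, 786 kept their direction and side of the threshold, 29 lost and 26 gained a call. Few wild type V reads, 259 to 596 pairs per library, limit the precision of each wild type level.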
